A study of Mus musculus with 11 samples.

Results

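Atf3, Gap43, Basp1, Sprr1a, Sox11, Gadd45a, Ecel1 and Flrt3 are 8 genes linked to axon injury and axon growth, and they were followed in single cells of the mouse stellate ganglion. They were chosen by name, and all 8 were among the 19444 genes of the expression table, which held 878 cells. This ganglion lies low in the neck and holds sympathetic neurons that supply the arm, the chest and fat. The cells came from 6 male C57BL/6J mice aged 6 to 8 weeks. Every mouse had received 2 retrograde tracers 3 days earlier, CTB-488 into a forelimb and CTB-555 into brown fat between the shoulder blades (iBAT). No nerve lesion is named in the labels and no set was without the injections, so "injury" describes the genes and not a treatment. A set pools 2 mice, and n = 3 sets throughout. The 11 plates, 4 for Set 1, 4 for Set 2 and 3 for Set 3, repeat a set technically. Which tracer a cell had taken up is not used here.

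The deposited annotation gives every cell a cluster number, 1 to 4. Cluster 3 mixes 2 depths and was split at 10000 counts per cell, between its deepest low-count cell of 9804 counts and its shallowest high-count cell of 18608. The groups were high-count cluster 3 (48 cells, median 68058 counts), cluster 4 (54 cells, median 35488.5), cluster 2 (335 cells, median 40121), cluster 1 (388 cells, median 28396) and low-count cluster 3 (53 cells, median 2658). Each of them had cells from all 3 sets. Markers of sympathetic neurons, 9 of 10 listed, summed to 118.2 or more counts per 10000 in every set of the first 4 groups and to between 25.7 and 91.5 in low-count cluster 3. Endothelial markers summed to between 6.38 and 21.0 there, against 0.0969 or less in the neurons. Cholinergic markers (Chat, Slc18a3, Slc5a7 and Vip) summed to between 58.2 and 64.6 in cluster 4, against 0.391 or less in the other neurons. The 825 neurons below are the cells of the first 4 groups.

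When the axon of a peripheral neuron is damaged, signals that travel back to the cell body switch on a set of transcription factors, and these in turn raise genes for regrowth while genes of synaptic transmission fall. Atf3, a stress-induced factor of the ATF/CREB family, is widely used as a marker of such neurons, and Sox11 is a developmental factor that returns after injury. Gadd45a is a stress-response protein. Gap43 and Basp1 are abundant membrane-associated proteins of growth cones, and adult sympathetic neurons hold both without injury. Sprr1a, better known as a protein of the skin's cornified envelope, is induced in regrowing axons. Ecel1 is a membrane-bound relative of the endothelin-converting enzymes that is induced by nerve injury. Flrt3 is a surface adhesion protein that binds latrophilins and Unc5 receptors. Levels are given in counts per 10000 counts of a cell and are compared within a gene only, since 3′ ends were counted.

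The promoters of Atf3 and Sprr1a are shown because Atf3 picks out the cells described next and Sprr1a splits them. RefSeq sequences (GRCm38.p6, 250 bases before to 50 after the annotated start) were matched by symbol for 7 of the 8 genes, Gap43 being the one without a match. On both strands, the AP-1 motif TGANTCA, the CRE motif TGACGTCA and the CRE-like motif TNACGTCA, which includes the CRE, were searched. Capitals mark the matches, and both sequences run 5′ to 3′ on the minus strand, at chr1:191183284-191183583 for Atf3 and at chr3:92485832-92486131 for Sprr1a.
Atf3 promoter: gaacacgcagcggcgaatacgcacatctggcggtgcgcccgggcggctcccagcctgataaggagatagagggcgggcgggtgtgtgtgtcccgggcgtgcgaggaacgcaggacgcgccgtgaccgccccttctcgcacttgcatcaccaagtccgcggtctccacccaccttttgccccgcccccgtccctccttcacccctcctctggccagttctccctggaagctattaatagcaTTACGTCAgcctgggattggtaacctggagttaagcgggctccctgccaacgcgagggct
Sprr1a promoter: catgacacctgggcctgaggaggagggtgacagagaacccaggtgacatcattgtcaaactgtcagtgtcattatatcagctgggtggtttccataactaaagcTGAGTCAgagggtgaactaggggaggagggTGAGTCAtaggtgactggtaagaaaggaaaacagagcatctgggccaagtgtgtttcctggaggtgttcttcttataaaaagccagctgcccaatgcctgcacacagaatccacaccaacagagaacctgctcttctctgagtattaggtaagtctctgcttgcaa
Atf3 held 1 CRE-like match, TTACGTCA, starting 10 bases before the RefSeq start used here. That start lies inside the GENCODE span of Atf3, chr1:191170296-191218039, and the upstream end of this span was not searched. Sprr1a held 2 AP-1 matches, both TGAGTCA, 146 and 116 bases before its start. Basp1, Sox11, Gadd45a, Ecel1 and Flrt3 held none of these letters in their windows. Of 32851 promoters of the same length, 7.81% held TGANTCA, 2.93% TNACGTCA and 1.79% TGACGTCA.

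Atf3 was close to 0 in nearly every neuron and high in 7. These 7 neurons are those with at least 5 Atf3 counts after each cell was thinned at random to 15000 counts. Ordered by Atf3 counts, they are cell A (Set 3, plate 10, 83 counts), cell B (Set 2, plate 6, 70), cell C (Set 3, plate 9, 69), cell D (Set 1, plate 1, 65), cell E (Set 2, plate 5, 64), cell F (Set 2, plate 8, 46) and cell H (Set 3, plate 10, 9 counts). Cells A, C, D, E and H belong to high-count cluster 3, and cells B and F to cluster 4. Cell H, with 18608 counts in all, is the shallowest cell of high-count cluster 3, where the next had 52105. Their Atf3 level ran from 4.84 in cell H to 12.8 per 10000 in cell F, with a median of 12.2. The other 818 neurons had a median of 0 and a maximum of 1.67, so the groups do not overlap, as the rule that picked the cells requires. After thinning, cell H was the lowest inside the rule with 7 Atf3 counts, and cell L of cluster 2 (Set 2, plate 5) was just outside it with 3. Cell G (Set 2, plate 6, high-count cluster 3) had 13 Atf3 counts of 77780 in all, 2 of them after thinning. None of the 323 cells of cluster 2 and the 367 cells of cluster 1 that reached 15000 counts met the rule.

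Sox11 and Gadd45a, the other transcription factor and the stress-response gene, were high in the same cells. Sox11 was at 3.38, 7.33, 2.19, 3.60, 3.07, 4.19 and 5.37 per 10000 in cells A, B, C, D, E, F and H, against a median of 0 and a maximum of 2.66 in the other 818 neurons. Only cell C was within the range of the others, 2 of which reached its level. Gadd45a was at 6.32, 4.14, 1.38, 1.89, 5.95, 3.07 and 1.07 in the same order, against a median of 0 and a maximum of 1.84 in the others. Cells C and H were inside that range, and 11 of the 818 other neurons reached the level of cell H.

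Sprr1a split the 7 cells. Cells A, B and D, 1 from each set, had 139, 214 and 158 Sprr1a counts, and cell H had 4. Cells C, E and F had 0 of 86844, 52105 and 35804 counts, which allows up to 3 counts in each. No other neuron had more than 2 counts. Cell H shared plate 10 with cell A, and the part that transfer between wells of a plate had in its 9 Atf3 and 4 Sprr1a counts was not tested.

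Of the growth-cone proteins, Gap43 was high in these cells and Basp1 was not set apart. Gap43 was at 54.8, 50.3, 42.3, 66.5, 68.5, 51.7 and 41.9 per 10000 in cells A, B, C, D, E, F and H, against a median of 23.2 and a maximum of 49.1 in the other neurons. Cells C and H lay inside that range, and 7 of the 818 other neurons reached cell H. Basp1 ran from 2.46 to 5.64 with a median of 3.91, against a median of 3.40 and a maximum of 12.9 in the others, so its ranges overlap fully. Cell G, the next in Atf3, had Gap43 at 40.4 and Basp1 at 6.69.

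Ecel1 was detected in 7 of 7 cells, from 1.68 in cell F to 11.3 in cell H, with a median of 3.03. In the others its median was 0.350 and its maximum 6.49, and 124 of the 818 reached the level of cell F. Flrt3 was at 12 counts in cell B and at 2 in cells E and H, and it was at 0 in the remaining 4. No other neuron had more than 2 counts of it. Flrt3 lies opposite to Macrod2, and the sources used here do not say whether counting used the strand. Macrod2 had 10 counts over the 7 cells together. Gadd45a overlaps E230016M11Rik on the other strand, which had 0 counts in them.

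**Figure D1:**
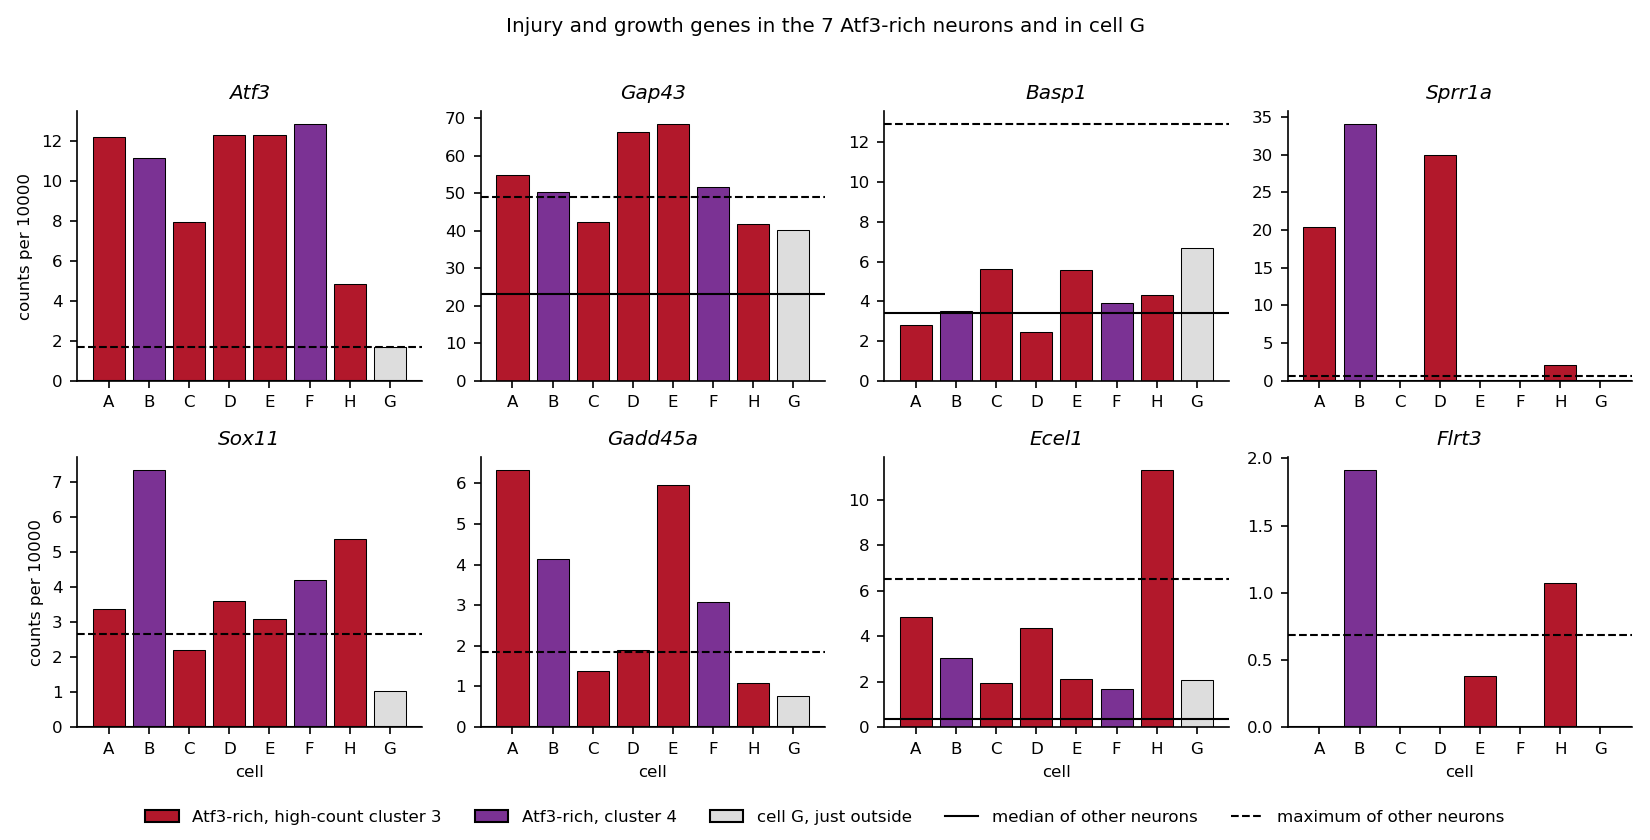
Counts per 10000 (vertical axes, linear from 0) of the 8 genes in the 7 Atf3-rich neurons and in cell G (grey), with the median (solid line) and maximum (dashed line) of the other 818 neurons. Red bars belong to high-count cluster 3 and purple bars to cluster 4. Sprr1a is high in cells A, B and D, while Sox11 is above the maximum of the others in 6 of the 7 cells.

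**Figure D2:**
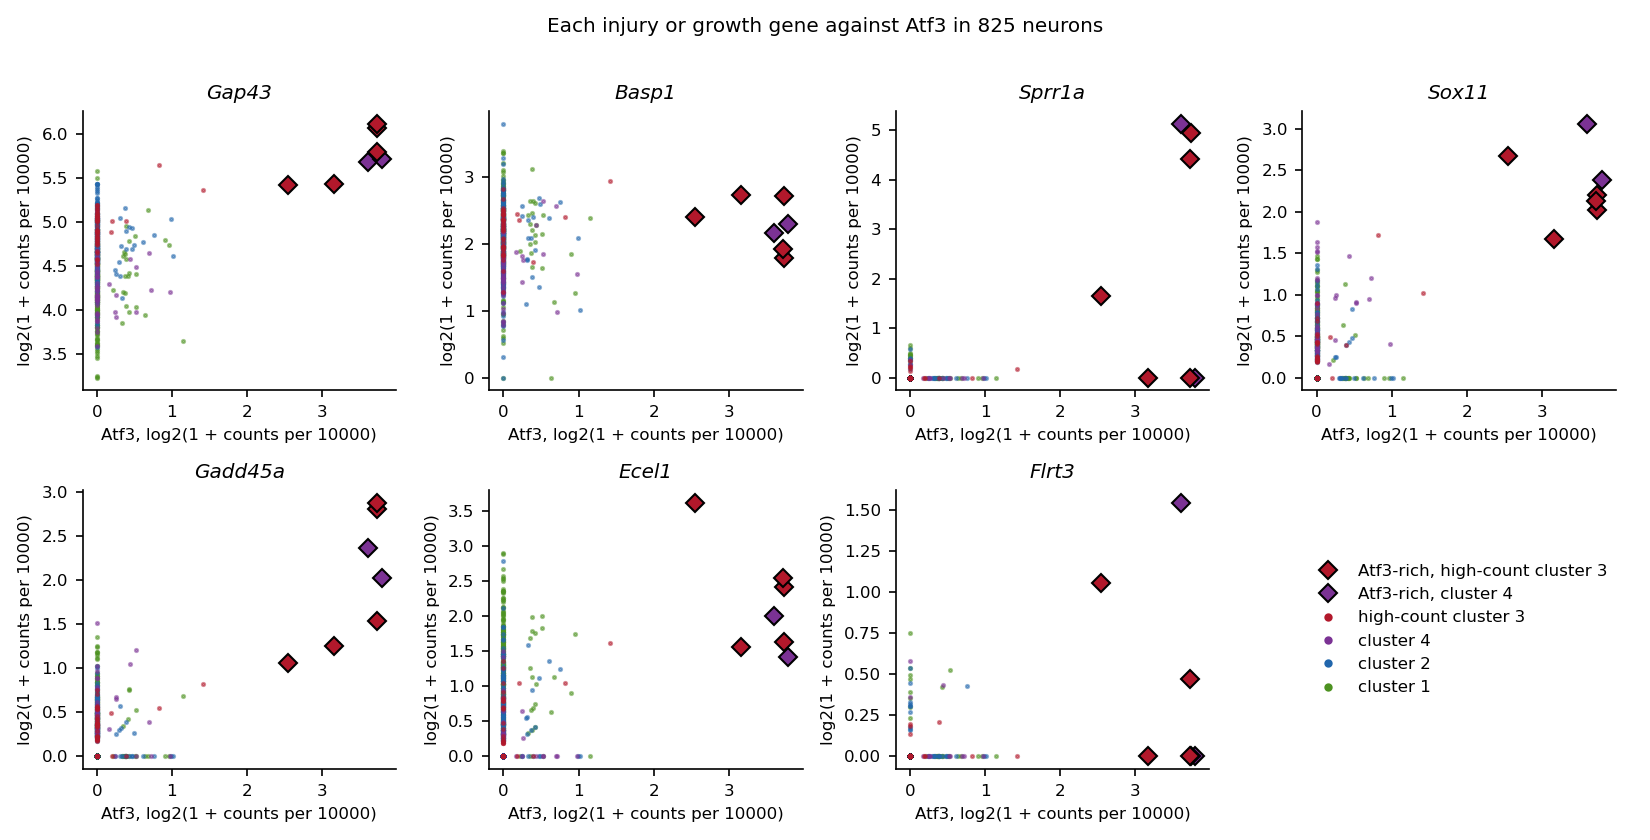
Each of the other 7 genes (vertical axis) against Atf3 (horizontal axis), both as log2(1 + counts per 10000), in 825 neurons. Diamonds are the 7 Atf3-rich cells, dots all others, coloured by cluster, and the diamonds stand apart on the Atf3 axis because that axis chose them.

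Do the other 7 genes differ with Atf3 in these cells? The 7 Atf3-rich cells were compared with the 86 cells of high-count cluster 3 and cluster 4 that had 0 Atf3 counts at 15000, on means per set and class, with limma. Sprr1a and Flrt3 reached the filter on mean level only through the Atf3-rich cells, so no count is drawn over all 7 genes. Of the other 5 genes, Sox11, Ecel1, Gadd45a and Gap43 rose and Basp1 did not pass, where 0.943% of the 10285 genes tested rose (97), 0.661% fell (68), and the median difference over all of them was -0.01. Sox11 averaged 4.39 per 10000 in Atf3-rich cells and 0.348 in cells without Atf3, a log2 difference of 2.08 (SE 0.193, adjusted p 9.25e-05 by limma). Ecel1 averaged 4.58 and 0.199 (2.10, SE 0.251, adjusted p 0.000502), Gadd45a 4.58 and 0.269 (1.83, SE 0.272, adjusted p 0.00280) and Gap43 53.9 and 24.6 (0.98, SE 0.127, adjusted p 0.00105). All 4 were higher in 3 of 3 sets. Sprr1a averaged 14.5 and 0.0309 (2.63, SE 0.601). Since the Atf3-rich cells brought it past the filter, no call is read from its adjusted p of 0.0478 by limma. That value ranged from 5.45e-13 to 0.379 over its other settings. Basp1 (0.52, SE 0.209, adjusted p 0.232) and Flrt3 (0.25, SE 0.195, adjusted p 0.546) did not pass.

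The set means behind these values are few, and each Atf3-rich mean rests on 1 to 3 cells. The p-values therefore do not separate the spread between sets from the spread between cells. In high-count cluster 3, Sox11 was at 3.33, 4.67 and 2.89 in the Atf3-rich cells of Sets 1, 2 and 3, against 0, 0.125 and 0.167 in the cells without. These means rest on 1, 1 and 3 cells against 12, 16 and 12. Gap43 was at 56.7, 66.7 and 45.8 in the Atf3-rich cells, against 30.9, 29.9 and 31.1 in the cells without. In both genes the lowest Atf3-rich mean was above the highest of the others. In cluster 4 only Set 2 held Atf3-rich cells, where Sox11 was at 6.67 against 0.852 and Gap43 at 46.3 against 18.1. Leaving out Set 2 took the adjusted p of Gap43 to 0.0908 and that of Gadd45a to 0.0851, while Sox11 (0.0169) and Ecel1 (0.00239) passed without it.

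Cells B and F were in cluster 4, but their Slc18a3 and Vip counts went against that label. Slc18a3, the vesicular acetylcholine transporter, had 0 counts in both, and Vip, the peptide of cholinergic neurons, had 3 and 2 counts. The other cells of cluster 4 had medians of 5.25 and 53.9 per 10000 for these genes. Agrp, which had a median of 2.95 in the other cells of high-count cluster 3, was between 0 and 0.345 in the 7 cells. Slc6a2, the noradrenaline transporter, was at 3.65 or less in cells A, C, D, E and H, against a median of 22.2 in the other cells of high-count cluster 3. In cells B and F it was at 2.39 and 4.19, between the median of 1.64 and the maximum of 7.61 in the other cells of cluster 4. Dbh, an enzyme of noradrenaline synthesis, was at 7.01 and 6.42 in cells B and F, against a median of 6.60 in those others. Over both classes, Th, the first enzyme of that synthesis, fell by 1.20 (SE 0.270, adjusted p 0.0450 by limma). Dbh, a later enzyme, fell by 1.90 (SE 0.386, adjusted p 0.0287 by limma). By set in high-count cluster 3, Dbh was at 0.667, 4.67 and 7.11 in Atf3-rich cells, against 21.6, 24.2 and 21.4 without Atf3. Th was there at 12.0, 12.0 and 19.3, against 42.3, 42.5 and 71.0. The peptide gene Npy, another noradrenergic marker, went the other way there, at 6.67, 8.67 and 22.4 against 3.89, 1.29 and 1.00. Cell H, in the Set 3 mean, was at 60.2, above the maximum of 11.9 in the other cells of high-count cluster 3. In cluster 4 only Set 2 held Atf3-rich cells. Dbh was there at 5.00 against 7.33, Th at 14.7 against 17.4 and Npy at 3.67 against 3.85. Cells A, C and E had 70, 66 and 54 counts of the peptide gene Calca and 1642, 424 and 806 of the peptide gene Gal. Cells B, D, F and H had 0 Calca counts and 17, 67, 20 and 150 Gal counts. Per 10000, Gal was at 80.6 in cell H and 48.8 in cell C. Cell G, outside the rule, had 63 Calca and 851 Gal counts. In the other neurons Calca reached 16.0 per 10000, and Gal had a median of 52.8 in cluster 1. With the cells of high-count cluster 3 alone, Sox11 (2.06), Ecel1 (2.20), Gadd45a (1.94) and Gap43 (0.86) passed again, with adjusted p-values of 5.28e-05 or less by limma.

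Some other genes linked to injury or axon growth moved in the same cells, in lists chosen with earlier results of these data known. Most genes of each list did not pass, and over all genes tested 0.943% rose and 0.661% fell. Of 14 tested injury-linked transcription factors 2 rose and none fell, Klf6 (1.76, SE 0.200, adjusted p 0.000322) and Jun (1.38, adjusted p 0.00210), and the median of the list was 0.24. Of 19 growth-cone and axon cytoskeleton genes 4 rose, among them the stathmins Stmn4 (2.15, adjusted p 9.25e-05) and Stmn1 (1.16, adjusted p 0.0155) and the tubulin gene Tuba1a (0.71, adjusted p 0.00126), with a list median of 0.27. Of 17 injury-linked secreted proteins and receptors 7 rose, including the calcium channel subunit Cacna2d1 (2.55, adjusted p 2.95e-05) and the laminin receptor subunit Itga7 (1.95, adjusted p 0.000154). The nerve growth factor receptor Ngfr fell (-1.77, adjusted p 0.000154). The median of this list was 0.76.

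Relatives and partners of the 8 genes did not all follow. Gadd45g rose (1.45, SE 0.254, adjusted p 0.0101), 1 of 5 tested relatives of the members. Flrt1 fell (-0.95, adjusted p 0.0392), 1 of 7 Flrt3 partners and relatives, and was at 0 in the Atf3-rich cells after thinning. None of 7 integrated stress response genes passed, with Atf5 at 0.76 (adjusted p 0.133) and Asns at 0.75 (adjusted p 0.131). Of 12 immediate early and dissociation genes, Jun and Jund (0.92, adjusted p 0.0373) rose and the list median was -0.08. Their summed level ran from 8.53 to 13.1 in the Atf3-rich cells, with a median of 11.5, against 1.51 to 28.1 with a median of 7.35 in the cells without, and its part in the result was not tested. Fos, chosen after its values were seen, had counts in 1 of the 7 cells. Among the other cells, the median level of Fos was 0.134 in high-count cluster 3 and 0.770 in cluster 4. Nothing about dissociation is read from Fos. Glial markers summed to between 2.15 and 31.1 in the Atf3-rich cells and between 5.33 and 110.7 in the cells without, and 5 of 6 endothelial markers were at 0 in both.

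Among the genes that rose, those with the smallest p-values were Kif22, a kinesin (2.62), Cdkn1a, the cell-cycle inhibitor p21 (3.21), Cacna2d1, Stmn4, Sox11, Srxn1, an antioxidant enzyme (2.12), Esd (1.80) and Hn1 (2.10). Among the genes that fell, those with the smallest p-values included Snap25, a protein of the synaptic release machinery (-1.53), Ngfr, Tm4sf4 (-1.99), Pcbp3 (-1.83), AV026068 (-1.81), Syt1, the calcium sensor of vesicle release (-1.29), and Cd9 (-0.97). Their adjusted p-values by limma were 0.00188 or less, and each moved the same way in 3 of 3 sets. Sox11 is the member among them.

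The order of the clusters by mean level differed among members. Among the neurons, the means of Gap43, Basp1 and Atf3 were highest in high-count cluster 3, that of Sox11 in cluster 4 and that of Ecel1 in cluster 1. Basp1 of high-count cluster 3 overlapped clusters 2 and 1, and without the Atf3-rich cells Atf3 was highest in cluster 4. In the model of clusters 4, 2 and 1, 10564 genes were tested, of which 11.9% were higher and 9.49% lower in cluster 4 than in cluster 1. Against cluster 2, 9.13% were higher and 10.9% lower in cluster 4, and 5.27% were higher and 3.59% lower in cluster 2 than in cluster 1. In a second model of 10525 genes, high-count cluster 3 had 13.7% higher and 5.78% lower than cluster 1, 4.05% and 2.37% against cluster 2, and 15.5% and 8.79% against cluster 4. The split moves with scaling, since median-of-ratios size factors gave 800 higher and 764 lower, 244 and 240, and 1116 and 1097 for these 3 comparisons. The counts on the main scale were 1445 and 608, 426 and 249, and 1629 and 925. For cluster 2 against cluster 1 the split was 557 and 379 on the main scale and 407 and 445 with those size factors. The clusters were made from these same cells, so p describes how well a difference repeats over sets.

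**Figure D3:**
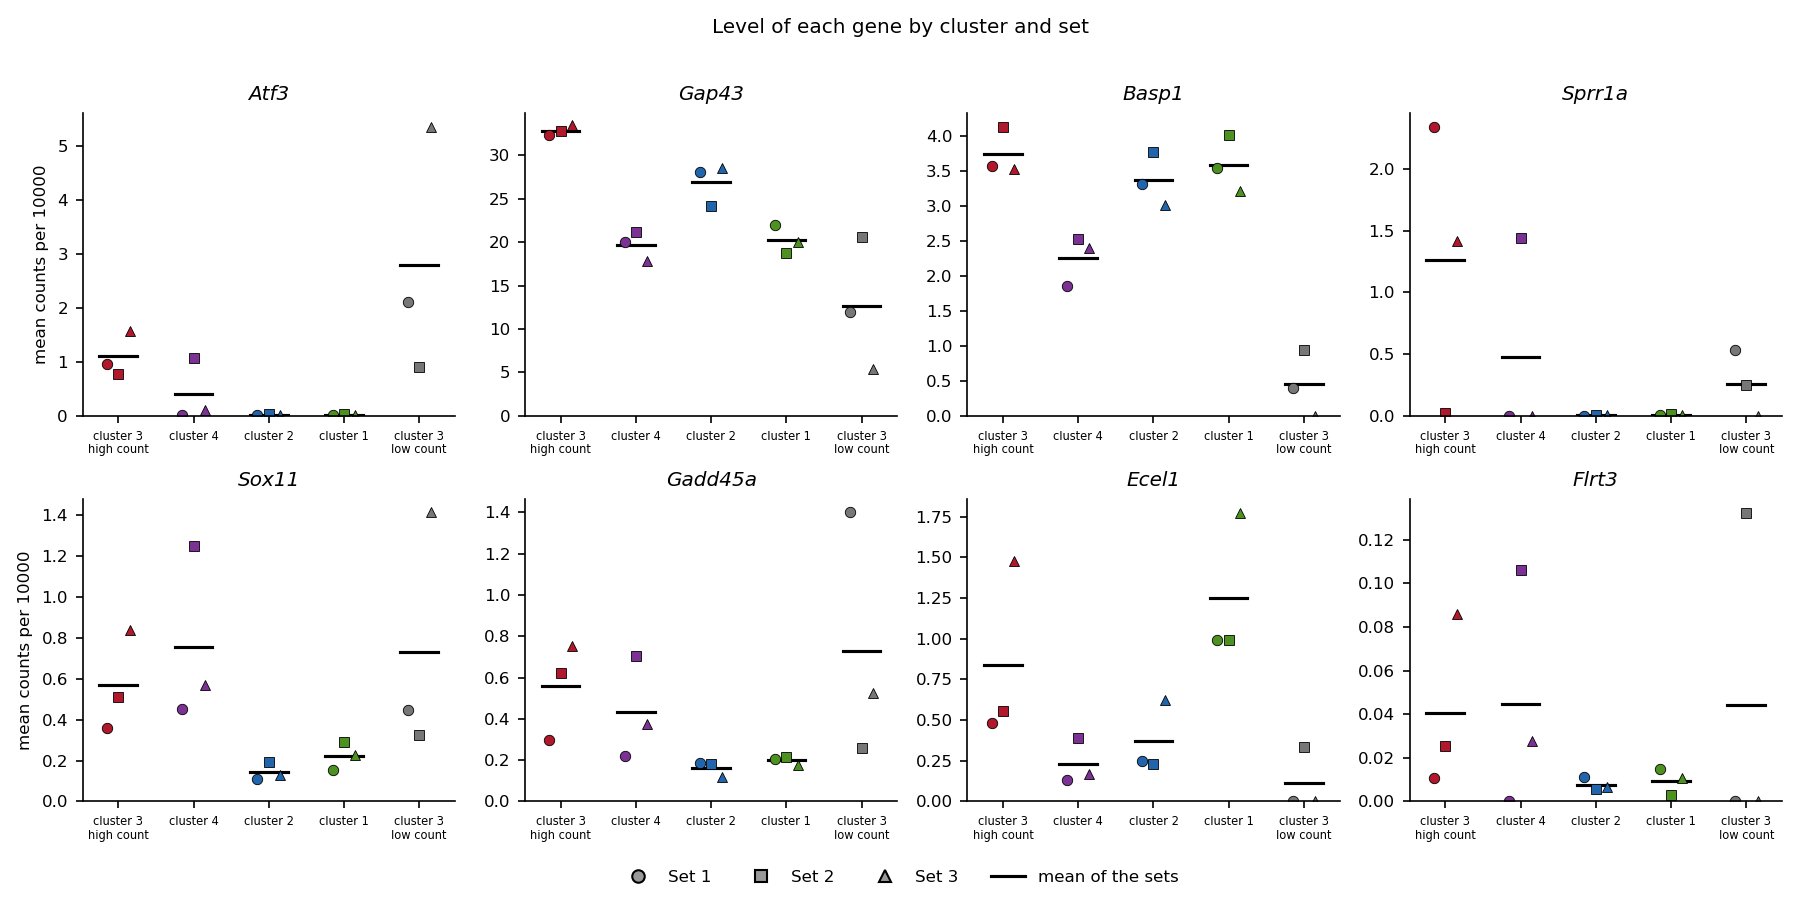
Mean counts per 10000 (vertical axes, linear from 0) of each gene in the 5 groups of cells, 1 point per set and a bar at the mean of the 3 sets. Gap43 runs from 32.8 in high-count cluster 3 to 19.6 in cluster 4 among the neurons, and Ecel1 from 1.25 in cluster 1 to 0.231 in cluster 4.

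Gap43 was highest in high-count cluster 3. It averaged 32.8 ± 0.592 per 10000 there, 19.6 ± 1.65 in cluster 4, 26.9 ± 2.40 in cluster 2 and 20.2 ± 1.64 in cluster 1 (SD, n = 3 each). The set means were 32.3, 32.8 and 33.4 in high-count cluster 3, 20.0, 21.1 and 17.8 in cluster 4, 28.0, 24.1 and 28.5 in cluster 2, and 22.0, 18.7 and 20.0 in cluster 1, for Sets 1, 2 and 3. The first 3 in order of the mean (high-count cluster 3, cluster 2, cluster 1) do not overlap, and clusters 1 and 4 do. Gap43 was higher in high-count cluster 3 than in cluster 4 by 0.73 (SE 0.0586, adjusted p 1.21e-08), and than in cluster 1 by 0.67 (SE 0.0586, adjusted p 4.35e-08). Against cluster 2 the difference was 0.26 (adjusted p 0.00897), and it became 0.17 (adjusted p 0.0731) without the Atf3-rich cells. That call was also lost without Set 2 (adjusted p 0.164) and without Set 3 (0.0646). Gap43 was lower in cluster 4 than in cluster 2 by -0.47 (SE 0.0569, adjusted p 2.66e-05) and higher in cluster 2 than in cluster 1 by 0.41 (SE 0.0569, adjusted p 0.000172), all by limma. Cluster 4 against cluster 1 gave -0.05 (adjusted p 0.559).

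Basp1 was lowest in cluster 4. Its set means were 3.57, 4.12 and 3.52 in high-count cluster 3, 1.85, 2.52 and 2.39 in cluster 4, 3.31, 3.77 and 3.00 in cluster 2, and 3.54, 4.01 and 3.20 in cluster 1. Every set of cluster 4 was below every set of the other neurons, which overlap each other. The difference from cluster 1 was -0.49 (SE 0.0642, adjusted p 4.45e-05) and from cluster 2 -0.42 (SE 0.0642, adjusted p 0.000239), and high-count cluster 3 was higher than cluster 4 by 0.57 (SE 0.0621, adjusted p 6.63e-07). The 3 comparisons among the other neurons did not pass. Between clusters 2 and 1, Basp1 was not called (-0.07, adjusted p 0.705). Whether it differs there from Gap43 was not tested.

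Sox11 was highest in cluster 4. Its set means were 0.359, 0.509 and 0.839 in high-count cluster 3, 0.453, 1.25 and 0.571 in cluster 4, 0.110, 0.192 and 0.131 in cluster 2, and 0.156, 0.289 and 0.227 in cluster 1. Sox11 was higher in cluster 4 than in cluster 1 by 0.42 (SE 0.0586, adjusted p 8.46e-05) and than in cluster 2 by 0.50 (SE 0.0586, adjusted p 1.90e-05). Without the Atf3-rich cells these were 0.36 and 0.44 and passed again. At 15000 counts, 29 of 53 cells of cluster 4 had a Sox11 count (54.7%, Clopper-Pearson 95% interval 40.4 to 68.4), against 12 of 48 in high-count cluster 3 (25%), 54 of 323 in cluster 2 (16.7%) and 99 of 367 in cluster 1 (27.0%). As deposited the shares were 83.3%, 60.4%, 35.2% and 41.5%, with more counts behind each cell. In low-count cluster 3 it was 13.2%, 7 of 53 cells at a median of 2658 counts.

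In high-count cluster 3, the Sox11 mean of 0.569 was 0.215 without the Atf3-rich cells. Against cluster 4 it was lower by -0.23 (SE 0.0701, adjusted p 0.0277), and by -0.38 (SE 0.0429, adjusted p 1.04e-06) without the Atf3-rich cells. With them, this call was lost without Set 1 (-0.23, adjusted p 0.106) and without Set 2 (-0.10, adjusted p 0.324). Against cluster 2 it was higher by 0.27 (adjusted p 0.0289) with them and 0.07 (adjusted p 0.451) without them, and this call was lost without Set 1 (0.0705) and without Set 3 (0.257). Against cluster 1 it did not pass with them (0.19, adjusted p 0.0700) or without them (-0.01, adjusted p 0.890).

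Gadd45a was also higher in cluster 4. Its set means were 0.296, 0.622 and 0.754 in high-count cluster 3, 0.221, 0.703 and 0.376 in cluster 4, 0.184, 0.180 and 0.116 in cluster 2, and 0.205, 0.215 and 0.175 in cluster 1. The difference of cluster 4 from cluster 1 was 0.21 (SE 0.0554, adjusted p 0.0157) and from cluster 2 0.24 (adjusted p 0.00689). Both calls were lost when cells were thinned to 15000 counts (0.11 and 0.13, adjusted p 0.290 and 0.211), without Set 2 (0.210 and 0.124) and without Set 3 (0.164 and 0.132). High-count cluster 3 was higher than cluster 1 by 0.24 (adjusted p 0.00952) and than cluster 2 by 0.27 (adjusted p 0.0113), and without the Atf3-rich cells these were 0.08 (adjusted p 0.278) and 0.11 (adjusted p 0.217). These calls were also lost without Set 2 (0.0757 and 0.108) and without Set 3 (0.160 and 0.268).

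Other transcripts moved with cluster 4. Of 14 immediate early and dissociation genes, 9 were higher in cluster 4 than in cluster 1 and 10 than in cluster 2, with list medians of 0.23 and 0.27 against 0.01 and -0.01 over all genes. For Fos the mean was 0.923 in cluster 4, against 0.351 in cluster 2 and 0.436 in cluster 1, and for Btg2 it was 0.690, against 0.109 and 0.185. Glial markers summed to between 21.1 and 43.0 in cluster 4, 13.8 and 23.4 in cluster 2 and 11.8 and 14.4 in cluster 1. Without the tenth of neurons richest in glial counts, Sox11 (0.45 and 0.53) and Gadd45a (0.30 and 0.32) passed against clusters 1 and 2 again. The part of dissociation in these values was not tested. Gadd45g, a relative of Gadd45a, was higher in cluster 4 than in cluster 1 by 1.54 (SE 0.0711, adjusted p 7.12e-10), at 5.73 and 1.25 per 10000.

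Ecel1 was highest in cluster 1. Its set means were 0.479, 0.553 and 1.48 in high-count cluster 3, 0.131, 0.390 and 0.171 in cluster 4, 0.250, 0.233 and 0.622 in cluster 2, and 0.993, 0.993 and 1.77 in cluster 1. Ecel1 was lower in cluster 4 than in cluster 1 by -0.77 (SE 0.0871, adjusted p 4.24e-05), in cluster 2 than in cluster 1 by -0.64 (SE 0.0871, adjusted p 0.000464) and in high-count cluster 3 than in cluster 1 by -0.42 (SE 0.0881, adjusted p 0.00348, and 0.0639 without Set 1). Cluster 4 against cluster 2 gave -0.13 (adjusted p 0.353). High-count cluster 3 against cluster 4 passed (0.35, adjusted p 0.0110) and did not without the Atf3-rich cells (0.17, adjusted p 0.151) or without Set 3 (0.20, adjusted p 0.0670). At 15000 counts a count was found in 254 of 367 cells of cluster 1 (69.2%, 95% interval 64.2 to 73.9), against 17 of 48 in high-count cluster 3 (35.4%), 10 of 53 in cluster 4 (18.9%) and 95 of 323 in cluster 2 (29.4%). As deposited the share was 79.4% in cluster 1, 58.3% in high-count cluster 3, 33.3% in cluster 4, 46.3% in cluster 2, and 5.66% in low-count cluster 3.

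**Figure D4:**
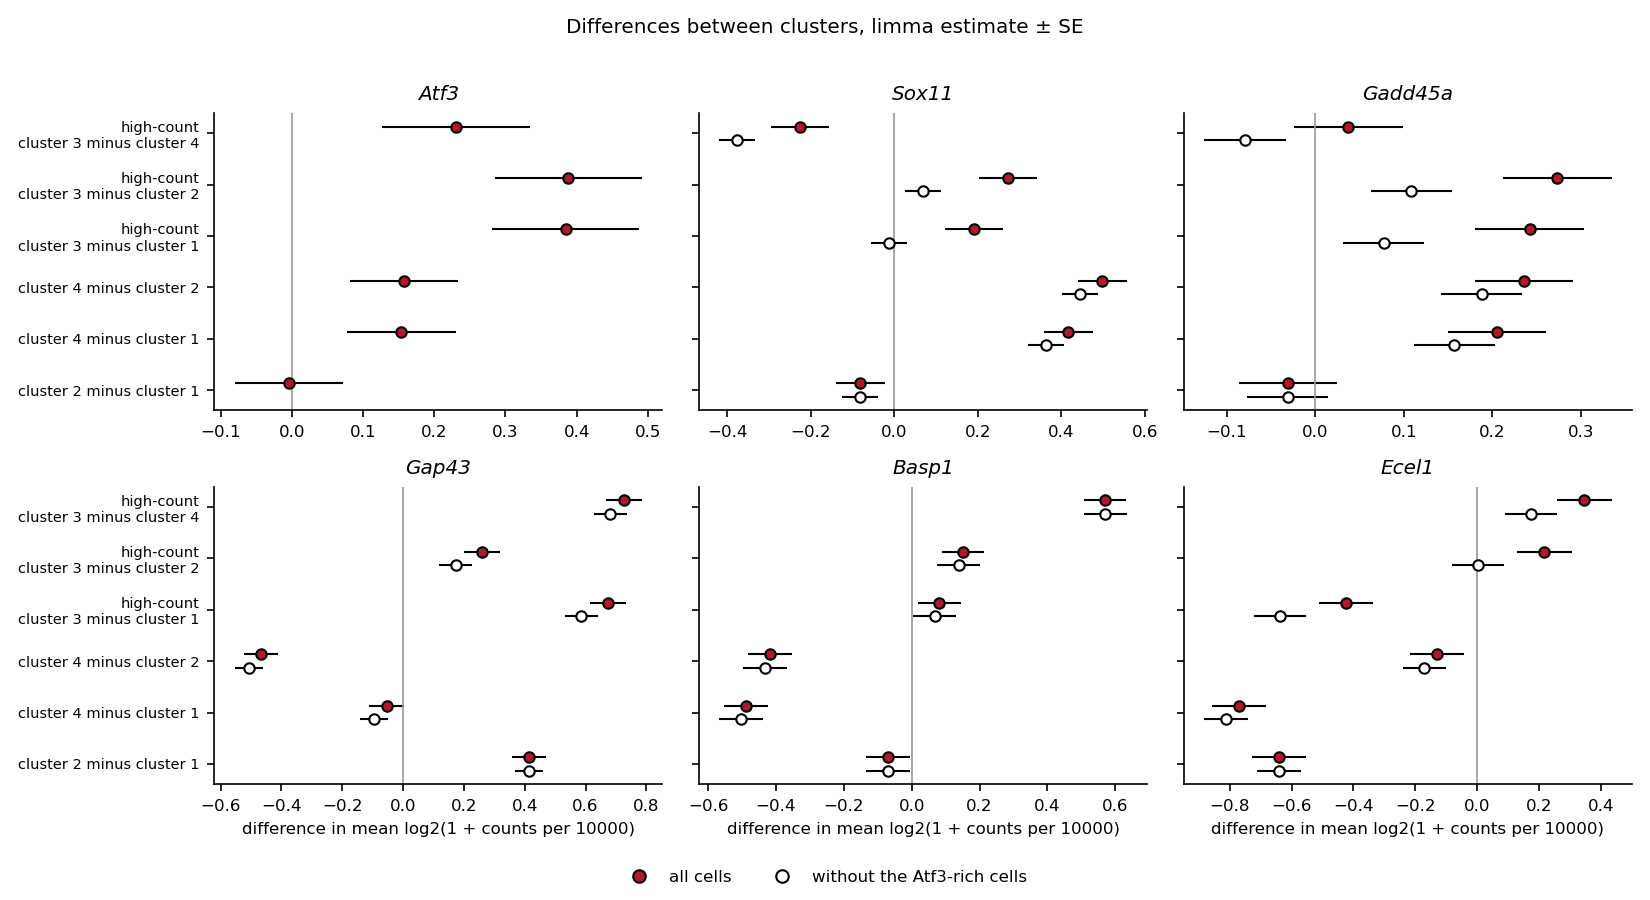
Differences between clusters in mean log2(1 + counts per 10000) (horizontal axes, limma estimate ± SE) for Atf3, Sox11, Gadd45a, Gap43, Basp1 and Ecel1. Filled points use all cells and open points leave out the Atf3-rich cells, where Atf3 itself did not pass the filter. Against cluster 2, Sox11 of high-count cluster 3 is at 0.27 with all cells and 0.07 without the Atf3-rich cells, and Gap43 against cluster 4 is at 0.73 and 0.68.

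No cluster difference is called here for Atf3, Sprr1a or Flrt3. Atf3 averaged 0.959, 0.782 and 1.58 over the sets of high-count cluster 3 and 0.0158, 1.08 and 0.113 over those of cluster 4, against 0.0389 or less in any set of clusters 2 and 1. It reached the filter on mean level only through the Atf3-rich cells, so its tests hold a gene selected by the group where it is high. No call is therefore read from its adjusted p-values by limma. High-count cluster 3 minus cluster 1 gave 0.38 (SE 0.104, adjusted p 0.0424, and 0.0925 without Set 1). Against cluster 2 it gave 0.39 (adjusted p 0.0863) and against cluster 4 0.23 (adjusted p 0.164), with 0.00240 and 0.00127 without Set 2. Cluster 4 gave 0.15 against cluster 1 (adjusted p 0.237) and 0.16 against cluster 2 (adjusted p 0.234), with 0.0253 and 0.0246 without Set 1. Without the 7 cells, Atf3 averaged 0.0598 in high-count cluster 3, 0.0722 in cluster 4, 0.0216 in cluster 2 and 0.0251 in cluster 1, and each neighbouring pair overlaps. Sprr1a did not pass in any of the 6 comparisons, although it reached the filter on mean level through few cells. Flrt3 was under the filter in both cluster models. Its means were 0.0407 in high-count cluster 3, 0.0446 in cluster 4, 0.00776 in cluster 2 and 0.00947 in cluster 1, all overlapping.

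Of the 8 members, 7 were tested between clusters. Atf3 and Sprr1a passed the filter only through the few cells rich in them, and neither is counted here. In cluster 4, 2 rose and 2 fell against cluster 1, where 21.3% of all genes tested were called in either direction, and likewise against cluster 2 (20.0%), while cluster 2 against cluster 1 gave 1 and 1 (8.86%). High-count cluster 3 had Gap43 and Gadd45a higher and Ecel1 lower than cluster 1 (19.5%). It had 3 members higher and 0 lower against cluster 2 (6.41%), and 3 and 1 against cluster 4 (24.3%). The calls against cluster 2, those of Gap43, Sox11 and Gadd45a, were all lost without the Atf3-rich cells. So were those of Gadd45a against cluster 1 and of Ecel1 against cluster 4. Of 19 growth-cone and axon cytoskeleton genes, 3 were higher and 12 lower in cluster 4 than in cluster 1, with Dpysl2 at -0.52 (adjusted p 5.57e-06) and Stmn2 at -0.36 (adjusted p 6.58e-06) and a list median of -0.21. High-count cluster 3 had 9 of them higher and 3 lower than cluster 4, with Tubb2b at 0.44 and Map1b at -0.26. Of 14 injury-linked transcription factors, 4 were higher and 1 lower in cluster 4 than in cluster 1, with Stat3 at 0.64 (adjusted p 2.43e-06), Klf6 at 0.29 and Sox4 at -0.38. Of 17 injury-linked secreted proteins and receptors, 12 were higher and 3 lower there, a list that holds Vip, a defining gene of the cluster (5.21). Of 7 integrated stress response genes 4 were higher and none lower, with Asns at 0.48 (adjusted p 5.03e-06). Of 7 Flrt3 partners and relatives, 2 were higher and 3 lower, with the latrophilin gene Adgrl3 at -0.60 (adjusted p 2.15e-06).

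Ecel1 also differed between sets. In cluster 1 its plate means were between 1.51 and 1.96 in Set 3, between 0.949 and 1.03 in Set 2 and between 0.862 and 1.11 in Set 1. In cluster 2 they were between 0.616 and 0.626 in Set 3, between 0.169 and 0.347 in Set 2 and between 0.142 and 0.309 in Set 1. In both clusters each plate of Set 3 was above each plate of Sets 1 and 2. A set is a pool of 2 mice, so this has no replicate and no test. Gap43 in cluster 2 was between 27.5 and 29.8 in Set 3 and between 27.0 and 28.5 in Set 1, against 23.5 to 24.9 in Set 2, whose plates were all lower. In cluster 1 the plates were at 19.2 to 20.9 in Set 3 and 20.6 to 23.9 in Set 1, against 18.1 to 19.2 in Set 2, whose highest plate was level with the lowest of Set 3.

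**Figure D5:**
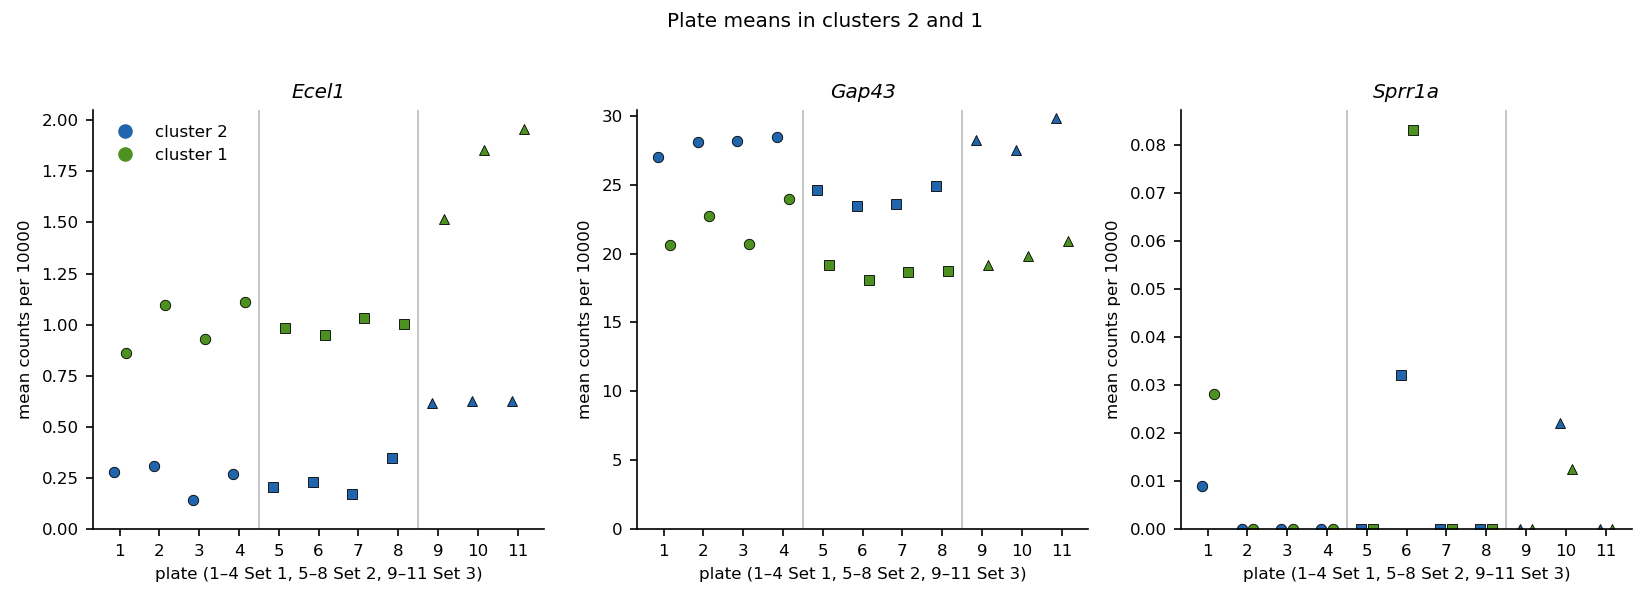
Mean counts per 10000 of Ecel1, Gap43 and Sprr1a on each of the 11 plates in clusters 2 (blue) and 1 (green), vertical axes linear from 0. Ecel1 is higher on the 3 plates of Set 3, and Sprr1a is above 0 only on plates 1, 6 and 10.

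Low counts of Sprr1a followed the plate. On plates 1, 6 and 10, which hold cells D, B and A, 17 of 185 cells of clusters 1 and 2 had 1 or 2 Sprr1a counts (9.19%, 95% interval 5.44 to 14.3). On the other 8 plates 0 of 538 had any, which allows up to 0.683%. For Atf3 the shares were 30 of 378 cells (7.94%, 5.42 to 11.1) on the 6 plates with an Atf3-rich cell, with at most 3 counts in a cell, and 11 of 345 (3.19%, 1.60 to 5.63) on the other 5. These intervals treat the cells of a pool as independent, and the difference in share between the plates was not tested for either gene. Per the labels' protocols cDNA was pooled within a plate, and the part of this in the low counts was not tested.

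In low-count cluster 3, Atf3 had a count in 16 of 53 cells (30.2%, 95% interval 18.3 to 44.3), against 10 of 48 in high-count cluster 3 (20.8%), 12 of 54 in cluster 4 (22.2%), 18 of 335 in cluster 2 (5.37%) and 23 of 388 in cluster 1 (5.93%), as deposited. With every cell thinned to 1500 counts it was 11 of 53 (20.8%, 10.8 to 34.1), against 5 of 48 (10.4%), 2 of 54 (3.70%), 0 of 335 (up to 1.10%) and 1 of 388 (0.258%). Its set means were 2.12, 0.906 and 5.35 per 10000, from 15, 31 and 7 cells. In the 16 cells with an Atf3 count, Gap43 was at 12.2 per 10000 of their summed counts, Basp1 at 0.590, Sox11 at 0.197, Sprr1a at 0, Gadd45a at 1.38, Ecel1 at 0.197 and Flrt3 at 0. In the 37 cells without one they were at 16.9, 1.27, 0.593, 0.339, 0.169, 0.169 and 0.0847. Apart from Gap43 these levels rest on few counts, and no order is read from them. Immediate early genes summed to 85.6 in the cells with Atf3 and 35.8 in those without, Fos was at 7.87 and 4.07, and endothelial markers summed to 16.5 and 9.74. These are sums over cells of all sets, with no test.

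Over the 791 neurons with at least 15000 counts, thinned to that depth and centred on the mean of each set and group, Atf3 correlated with Sprr1a (r = 0.60), Sox11 (0.35), Gadd45a (0.33), Ecel1 (0.27), Gap43 (0.24), Flrt3 (0.19) and Basp1 (0.08). Without the 7 Atf3-rich cells these were -0.03, 0.00, -0.02, 0.05, 0.06, 0.07 and 0.00. These cells share libraries and depth, and r is given as a description. The genes most like Atf3 were Cdkn1a (0.40), Hn1 (0.31) and Cacna2d1 (0.31), and without the 7 cells no gene reached 0.2. Among the genes most like Gap43 were Fxyd2 (0.26) and Omp (0.24), at 0.27 and 0.26 without the 7 cells. Ecel1 was most like Gal (0.33), Thy1 (0.28) and Chga (0.27), at 0.30, 0.28 and 0.30 without them. Sox11 was most like Cdkn1a (0.27), Hn1 (0.21) and Cd63 (0.20), and Sprr1a most like Cdkn1a (0.29), Cacna2d1 (0.25) and Hn1 (0.24). For Basp1, Gadd45a and Flrt3 no gene reached 0.2.

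In the GENCODE M21 annotation of GRCm38, the genes lie on the minus strand. Atf3 is at chr1:191170296-191218039, Ecel1 at chr1:87147655-87156521, Flrt3 at chr2:140650914-140671469, Sprr1a at chr3:92483952-92485895 and Gadd45a at chr6:67035096-67037457. Sox11 is at chr12:27334264-27342574, Basp1 at chr15:25363277-25413764 and Gap43 at chr16:42248442-42340651.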

How the data were processed

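Single cells of 3 pools of stellate ganglia were sequenced on 11 plates. Each deposited value is a natural log, ln(1 + counts per 10000 of the cell), as the values show. Undoing it returned whole counts, to within 0.001, for 100% of non-zero entries. Per the submitters' processing notes, STAR 2.5.3a, featureCounts 1.5.3, SAMtools 1.4.1 and Seurat were used on GRCm38. The sources used here do not say how the deposited clusters were made. All 96 barcodes recur on more than 1 plate, where they mark wells. No doublet caller was run.

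The 8 members and all lists were chosen with earlier results of these data known. limma 3.58.1 (R 4.3.3, trend and robust) compared means over cells of log2(1 + counts per 10000) per set and cluster, with set as a block, for genes with a mean of at least 0.05 counts per 10000. Tests were two-sided with Benjamini-Hochberg adjustment over all genes tested and a threshold of 0.05. This scale understates changes of low genes. Deviations of the same set correlated between clusters at 0.556 to 0.866 over 9 pairs, and the sets pool the same mice, so the block was kept. The comparison by Atf3 was planned within clusters 1 and 2. No cell there had 5 Atf3 counts at 15000, so it was made in high-count cluster 3 and cluster 4, a choice made after seeing the data. The plan left out means over fewer than 3 cells, whereas means over 1 or more cells were used here. Its interaction with cluster was not run. Fits were tested on simulated data. Named genes are the members, the 3 genes of a list with the smallest p, the 3 most correlated with a member (r of at least 0.2, mean of at least 0.5), and the 8 with the smallest p each way in the comparison by Atf3. A gene that fell in that comparison and a gene correlated with Gap43 met the rule and are not reported here. Slc6a2, Slc18a3, Vip, Agrp, Calca, Gal, Th, Dbh, Npy and Fos in the Atf3-rich cells were chosen after their values were seen. Intervals are 95% Clopper-Pearson intervals, and they and the limit of 3 counts for a 0 cover counting error only. Tables and plots were made in Python 3.11.15 with matplotlib 3.10.9, scipy 1.17.1, pandas 2.3.3 and numpy 2.4.6.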

Additional observations from a re-analysis of the deposited data

Results flagged for a closer look

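In 5 of 32 groups of 4 plates checked, 1 plate of a set stood apart from the other 3, all of which were at 0. With 3 plates at exactly 0 any count on the fourth sets it apart, so the usual chance rate of about 1 in 20 does not apply. Sprr1a was at 0.00890 per 10000 in cluster 2 and 0.0282 in cluster 1 on plate 1 of Set 1, and at 0.0321 and 0.0830 on plate 6 of Set 2. Cells D and B, with 158 and 214 Sprr1a counts, were on these plates. Flrt3 was at 0.0102 in cluster 1 on plate 5 of Set 2, from 1 cell.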

How the results depend on the processing

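For single members, 470 of 559 alternatives to 49 results kept direction and side of the threshold, 65 lost a call, 24 gained one and none reversed. The 49 include results that were not called and those of Atf3 and Sprr1a. The 470 is therefore no measure of how stable the calls are. Counts of genes called moved more. In the order cluster 4 against 1, cluster 4 against 2, cluster 2 against 1, then high-count cluster 3 against 1, 2 and 4, they were 2254, 2111, 936, 2053, 675 and 2554 as reported. Thinned to 15000 counts they were 1493, 1357, 522, 914, 244 and 1449. With no replicate block they were 920, 831, 282, 682, 105 and 956, the pairing then being left out. Leaving out 1 set gave 1473 to 1519, 1326 to 1462, 423 to 561, 1067 to 1430, 240 to 381 and 1671 to 1842. A mean of at least 0.5 gave 1243 and 1201 for cluster 4 against 1 and 2, voom weights 2466 for cluster 2 against 1, and a pseudocount of 0.1 gave 3728 for high-count cluster 3 against 1. Against cluster 2, no filter gave 270 and a split at 5000 counts 445. The comparison by Atf3 called 165, against 99 with no filter, 63 thinned to 10000 counts, 256 with weights by cell number, 878 on counts as deposited, 163 without the block and 35 to 99 without 1 set. In all of these the cause was not tested, beyond fewer genes tested or fewer sets. Without the block, Gap43 lost its calls of cluster 2 against 1 (adjusted p 0.169) and of high-count cluster 3 against 2 (0.608). Ecel1 lost those of high-count cluster 3 against 1 (0.0700) and 4 (0.127). Sprr1a by Atf3, from which no call is read, was then at 0.0835. Without the block Gadd45a lost its 4 calls (0.108, 0.0671, 0.0966 and 0.171) and Sox11 those of high-count cluster 3 against 2 (0.351) and 4 (0.191). On summed counts with voom weights, calls were lost for Ecel1 in cluster 4 against 1 (0.0922) and Gap43 in cluster 4 against 2 (0.0852). On summed counts with size factors, they were lost for Ecel1 in cluster 2 against 1 (0.123) and in high-count cluster 3 against 1 (0.283) and 4 (0.104), and for Gap43 in cluster 2 against 1 (0.0738) and high-count cluster 3 against 2 (0.161). The planned comparison within clusters 1 and 2 was not run with any of its alternatives. Depth limits the low-count cells most, and 3 sets limit every test.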
